A study of Mus musculus with 24 samples.

Results

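The genes described here encode the structural proteins of the hair shaft and of its inner root sheath. They were chosen by name, as the rows of the deposited expression table whose symbol is that of a keratin-associated protein (Krtap followed by a digit) or of a hair-type keratin. The rule found 78 of the 18368 genes in the table, of which 54 encode keratin-associated proteins, 9 hair shaft type I keratins (Krt31 to Krt36, Krt39 and Krt40), 7 hair shaft type II keratins, 7 inner root sheath keratins (Krt25 to Krt28 and Krt71 to Krt73) and 1, Krt75, the keratin of the companion layer. RNA was sequenced from 24 libraries of 12 CD1 mice, an outbred albino stock, with 4 mice each for abdomen, back and cheek. Every mouse was shaved, was 7 weeks old and gave 1 library of unwounded skin and 1 library of a full-thickness punch wound of 2 mm at day 3, both from the same site. By the paper's methods, a mouse received 1 wound on the cheek or 2 on the abdomen or back. Site and number of wounds therefore cannot be told apart when wounds of cheek are compared with those of other sites. Mouse numbers run within a site, so that mouse 2 of the back and mouse 2 of the cheek are different animals. The labels state that all mice were coordinated in telogen, the resting phase of the hair cycle. The study asked how skin of different embryonic origin differs at rest and after wounding.

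A hair grows from matrix cells at the base of the follicle, which divide during anagen, the growth phase, and then fill with keratin as they move outward. Type I and type II hair keratins pair into filaments, and the small keratin-associated proteins, which are rich in cysteine or in glycine and tyrosine, embed these filaments in the shaft. The inner root sheath moulds the growing shaft and carries keratins of its own, and the companion layer joins that sheath to the outer root sheath. In telogen the matrix and the inner root sheath are not maintained, and the club hair of the previous cycle stays anchored in the resting follicle.

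The members lie close together in the genome. RefSeq positions on GRCm38.p6 were found for 77 of them, with 35 on chromosome 11, 23 on chromosome 16, 10 on chromosome 15, 5 on chromosome 7, 3 on chromosome 10 and 1 on chromosome 1. The 22 keratin-associated protein genes of chromosome 11 span 443.9 kb, and the 23 of chromosome 16 span 960.5 kb. Promoter windows of 300 bases, from 250 before to 50 after the RefSeq start, were at hand for 66 members. The letters TATAAA, read on the sense strand and starting between 40 and 20 bases before the start, were in 38 of these 66 windows (57.6%) and in 600 of 27025 windows of all genes (2.2%). Counted on either strand and anywhere in the window, the same letters were in 80.3% of member windows and in 14.2% of all windows. Of the classes with more than 2 windows, the element at this position was in 29 of 49 keratin-associated protein genes, 5 of 7 inner root sheath keratins and 4 of 7 hair shaft type I keratins. The letters CTTTGA, on either strand, were in 30.3% of member windows and 16.2% of all windows, and CTTTGT in 25.8% and 18.7%. A match describes these letters in the window and does not show that a factor binds there.

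The windows of 5 genes are printed because their genes carry the patterns that follow. Krtap3-1 (chr11:99566581-99566880), Krtap3-2 (chr11:99556804-99557103) and Krtap3-3 (chr11:99550814-99551113) are neighbours on the minus strand whose RNA levels differed widely in most libraries. Krtap8-1 (chr16:89487903-89488202, minus strand) and Krt71 (chr15:101743048-101743347, minus strand) had the highest levels of their classes. Sequences are from RefSeq on GRCm38.p6, 5′ to 3′ on the sense strand of the gene, with each TATAAA on that strand in capitals.
Krtap3-1: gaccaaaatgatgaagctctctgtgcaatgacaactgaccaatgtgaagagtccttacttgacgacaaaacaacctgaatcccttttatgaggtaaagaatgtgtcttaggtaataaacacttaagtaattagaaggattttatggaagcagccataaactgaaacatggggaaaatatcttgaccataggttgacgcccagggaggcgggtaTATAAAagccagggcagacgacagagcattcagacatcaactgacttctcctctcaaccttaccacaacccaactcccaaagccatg
Krtap3-2: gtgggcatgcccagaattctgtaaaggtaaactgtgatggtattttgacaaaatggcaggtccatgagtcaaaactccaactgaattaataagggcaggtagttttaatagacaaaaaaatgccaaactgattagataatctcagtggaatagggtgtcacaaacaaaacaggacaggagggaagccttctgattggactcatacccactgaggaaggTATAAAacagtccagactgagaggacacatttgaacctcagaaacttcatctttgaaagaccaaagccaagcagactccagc
Krtap3-3: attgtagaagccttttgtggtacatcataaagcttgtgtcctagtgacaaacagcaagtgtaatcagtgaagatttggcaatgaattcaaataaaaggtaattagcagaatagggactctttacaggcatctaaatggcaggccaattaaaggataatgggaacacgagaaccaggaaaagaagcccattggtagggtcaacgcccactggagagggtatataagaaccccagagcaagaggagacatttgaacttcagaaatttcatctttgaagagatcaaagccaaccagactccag
Krtap8-1: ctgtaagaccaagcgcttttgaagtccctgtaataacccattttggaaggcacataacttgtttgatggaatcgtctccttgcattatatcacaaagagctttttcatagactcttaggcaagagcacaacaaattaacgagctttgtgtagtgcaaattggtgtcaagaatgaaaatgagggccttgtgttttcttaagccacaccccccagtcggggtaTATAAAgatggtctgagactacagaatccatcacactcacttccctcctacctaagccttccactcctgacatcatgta
Krt71: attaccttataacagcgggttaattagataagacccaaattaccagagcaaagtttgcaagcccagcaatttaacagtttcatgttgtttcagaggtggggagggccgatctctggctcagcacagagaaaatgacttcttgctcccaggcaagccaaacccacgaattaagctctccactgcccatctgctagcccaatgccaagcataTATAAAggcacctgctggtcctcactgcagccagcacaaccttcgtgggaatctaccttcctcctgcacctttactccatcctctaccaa
The capitals begin 37 bases before the start in Krtap3-1, 32 in Krtap3-2, 29 in Krtap8-1 and 40 in Krt71. The window of Krtap3-3 holds no TATAAA, but has the similar letters TATAAG at a like place before the start. Only the exact letters TATAAA were counted.

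All levels are in FPKM, which divides the fragments of a gene by its length in kilobases and by the number of fragments mapped in that library, so that levels of different genes can be set side by side per length. They summed to between 490830 and 608888 per library. One library stood apart. In unwounded cheek of mouse 4 the members summed to 18989 FPKM, which was 3.51% of the library, whereas in the other 23 libraries they summed to between 34.55 and 354.05 FPKM, or 0.0063% to 0.0656%. The labels place this mouse in telogen like the others. Markers of the remaining skin did not stand out there to the same degree. The basal keratin Krt14 was at 1314 FPKM in this library and between 1007 and 2016 in the 9 unwounded libraries other than this one, back mouse 2 and cheek mouse 3, and the adipocyte hormone gene Adipoq was at 42.0 FPKM against 108.8 to 212.2. Because biopsies mix many cell types, more cells of a type and more RNA per cell cannot be told apart in any of these values.

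**Figure D1:**
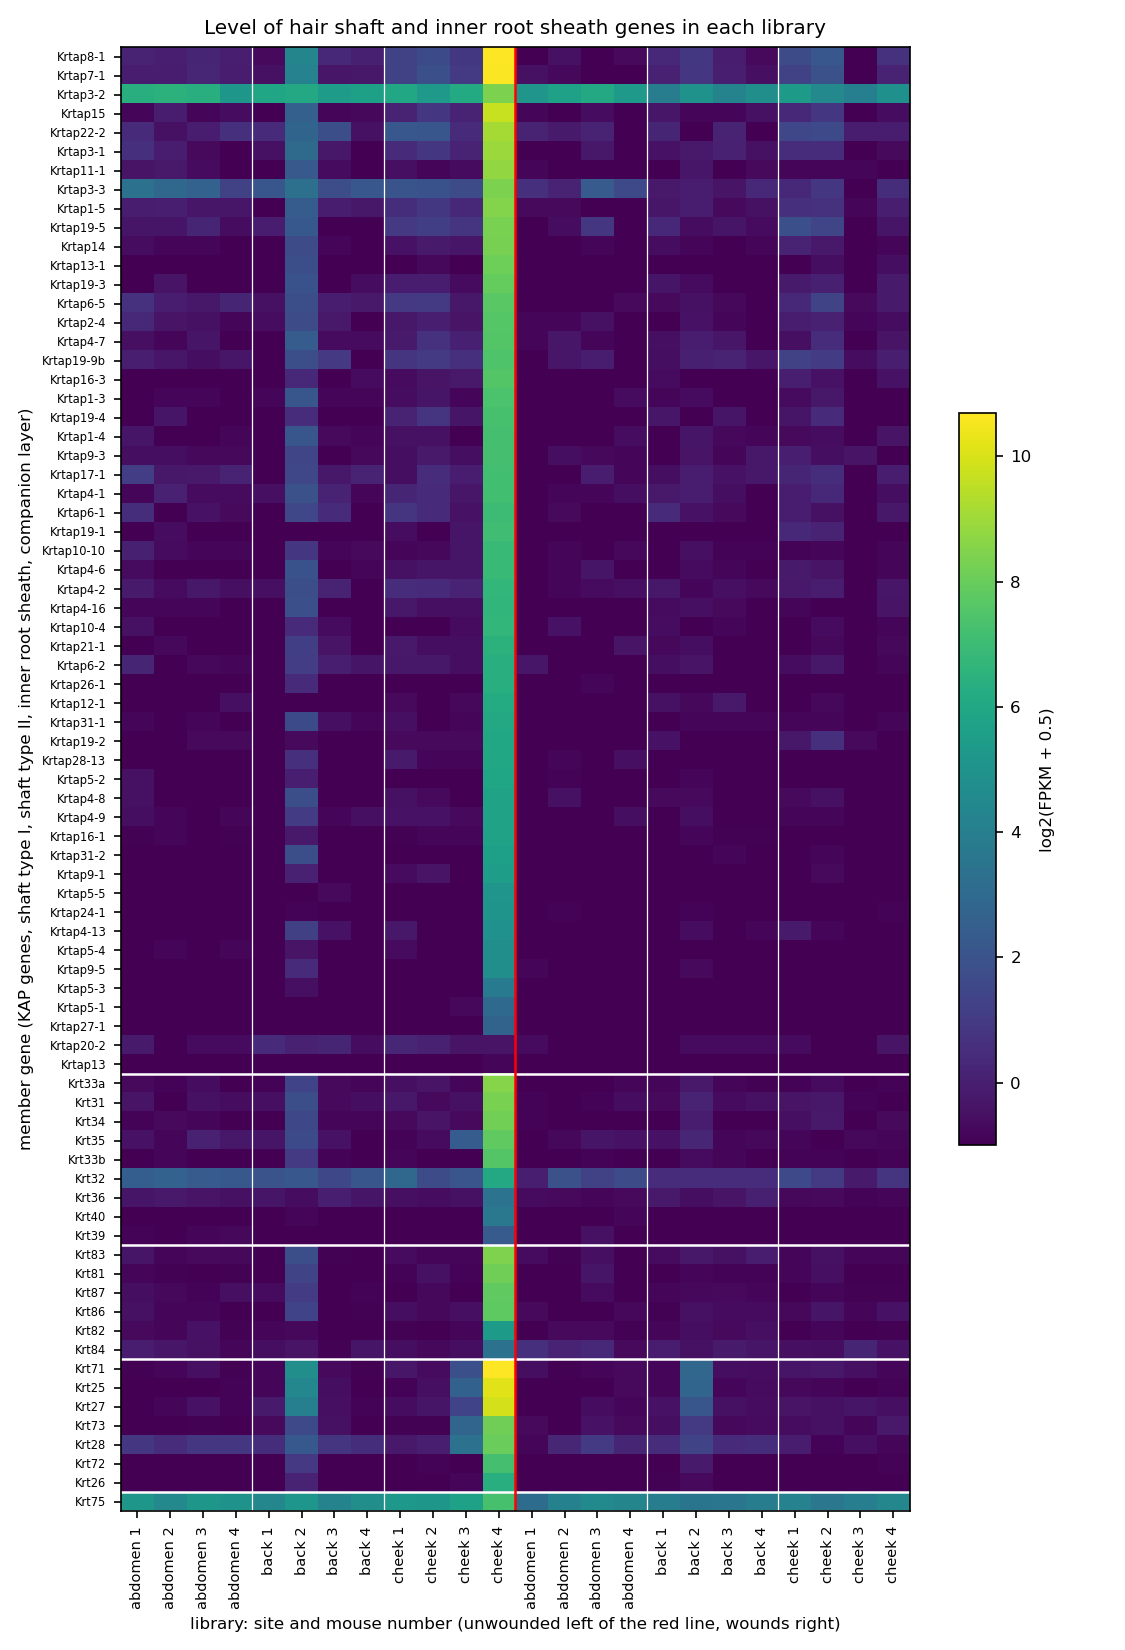
Level of 77 members with a RefSeq position (rows, grouped by class and ordered by mean level) in each of the 24 libraries (columns), as log2(FPKM + 0.5) from dark (low) to yellow (high). The column of unwounded cheek mouse 4 is bright in nearly all rows, that of unwounded back mouse 2 is raised in many, and Krtap3-2, Krtap3-3, Krt32 and Krt75 are seen in nearly every column.

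Unwounded cheek of mouse 4 held RNA of nearly the whole set. Of the 78 members, 76 were at 1 FPKM or more there, 72 at 10 or more and 48 at 100 or more, and 77 had their highest value of all 24 libraries there, Krtap20-2 being the exception. In 72 members (92.31%) the level was at least 1 FPKM and at least 10-fold above every other library, as it was for 134 of all 18368 genes (0.7295%). The median ratio of a member to its next highest library was 69.37, and for 56 members that next library was unwounded back of mouse 2. Each limit of 1, 10 or 100 FPKM and of 10-fold was chosen after the values were seen, and no test was made of 1 library. Outside this library, 13 members never reached 0.5 FPKM.

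In unwounded cheek mouse 4, the keratins of the inner root sheath were the most abundant class per gene. Their 7 genes summed to 4531 FPKM in this library. Krt71, the type II keratin of all sheath layers, was at 1651 FPKM there, and its type I partners Krt25 and Krt27 were at 1133 and 973 FPKM. In the other 3 unwounded cheek libraries, Krt71 was at 0.31, 0.14 and 3.06 FPKM in mice 1, 2 and 3. In unwounded abdomen it was at 0.03, 0.08, 0.20 and 0.03 FPKM and in unwounded back at 0.08, 27.26, 0.11 and 0.03 FPKM for mice 1 to 4. So 3 of the 12 unwounded libraries, each from a different mouse, were above 1 FPKM, and the level in cheek mouse 4 was 60.57-fold that of the next library. Krt72 and Krt26 reached 150.35 and 83.31 FPKM in cheek mouse 4 and were at most 1.43 and 0.62 FPKM elsewhere.

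The 16 hair shaft keratins were highest there as well. The 9 type I genes summed to 1505 FPKM and the 7 type II genes to 1449 FPKM in unwounded cheek mouse 4. Krt33a, Krt31 and Krt34, type I keratins of the shaft, were at 376, 328 and 292 FPKM, and the type II keratins Krt83, Krt81 and Krt87 at 348, 286 and 228 FPKM. Krt33a lay between 0 and 0.26 FPKM in 10 of the remaining 11 unwounded libraries and was at 2.09 FPKM in back mouse 2. Krt36, Krt39 and Krt84 were the lowest of the named shaft keratins in cheek mouse 4, at 10.4, 4.57 and 9.90 FPKM. Because these genes resemble each other, reads may have been split between them: 29.0% of the 100-base windows of Krt81 also occur in another gene, mostly Krt86, and 17.5% of those of Krt34, mostly in Krt33a.

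Keratin-associated proteins made up most of the sum, 11349 FPKM from 54 genes in unwounded cheek mouse 4. The highest were Krtap8-1 and Krtap7-1, small glycine- and tyrosine-rich proteins encoded close to each other on chromosome 16, at 1610 and 1550 FPKM. Krtap15, also on chromosome 16, was at 825 FPKM. Among members of chromosome 11, Krtap3-1 was at 482 FPKM, Krtap1-5 at 368 FPKM and Krtap3-3 at 333 FPKM. Sorted by the textbook families of their names, 14 glycine- and tyrosine-rich genes (Krtap6, 7, 8 and 19 to 22) had a median of 168.4 FPKM in this library and summed to 5327 FPKM, 20 high-sulphur genes a median of 176.2 and a sum of 4549 FPKM, and 17 ultra-high-sulphur genes (Krtap4, 5, 9 and 17) a median of 53.2 and a sum of 1297 FPKM. Among the last, the 5 Krtap5 genes of chromosome 7 lay between 7.41 and 59.0 FPKM. Krtap13 was at 0.07 FPKM in this library and listed at 0 in the other 23, and Krtap20-2 was at 0.27 FPKM there and between 0 and 0.80 FPKM elsewhere.

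**Figure D2:**
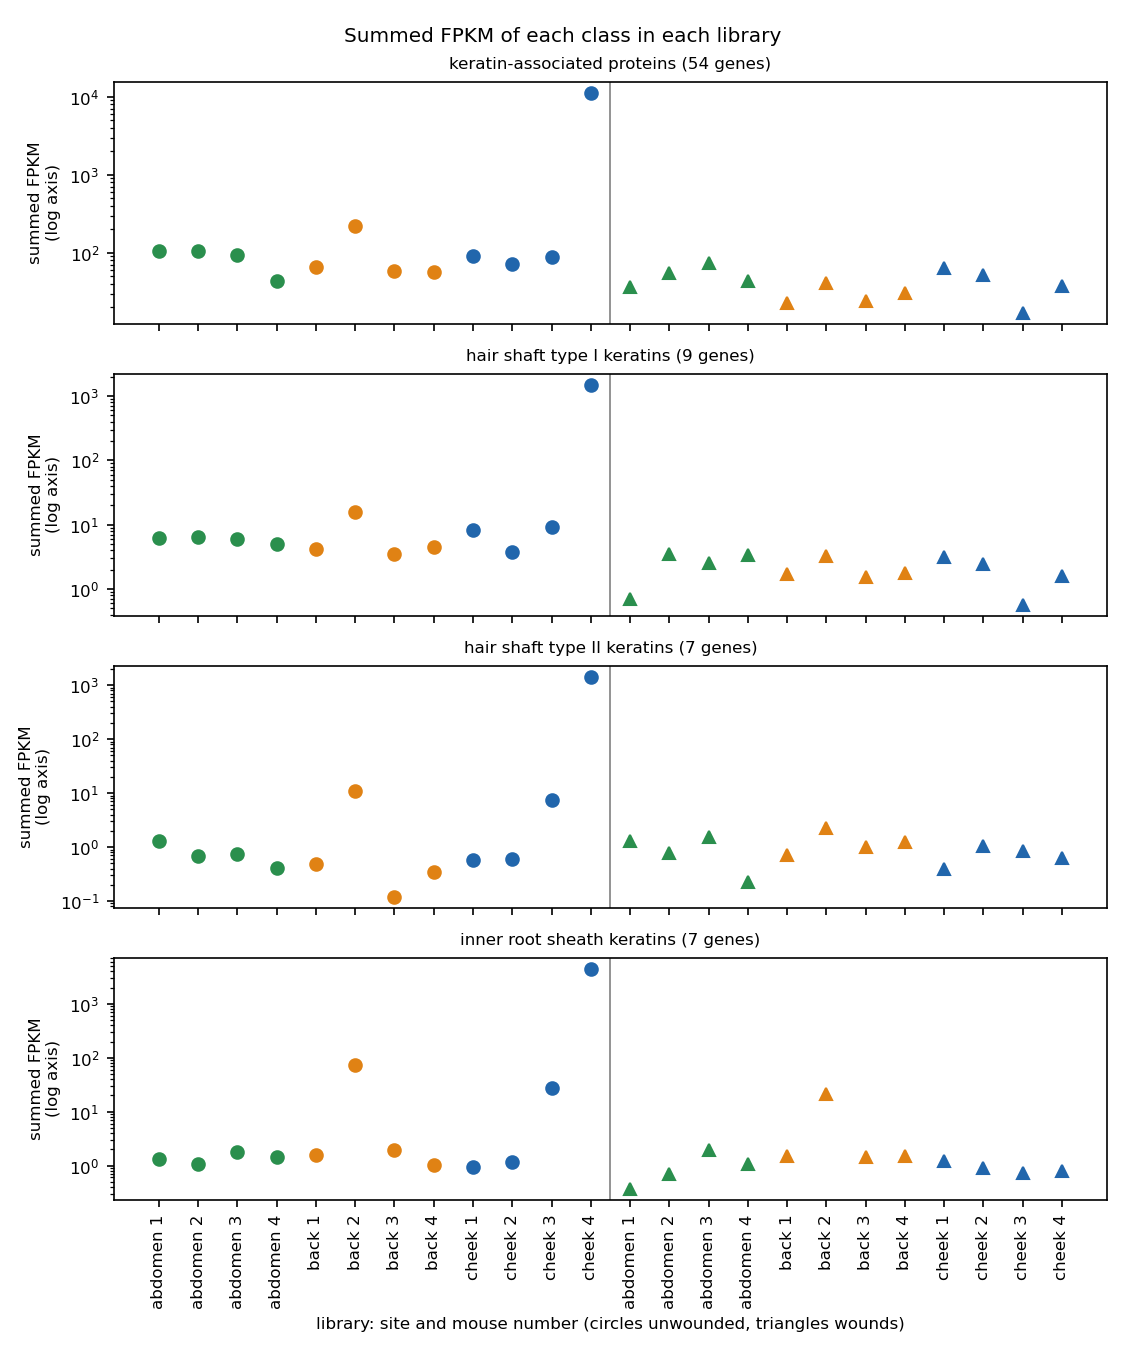
Summed FPKM (log axis) of the 4 classes with several genes in each of the 24 libraries, circles for unwounded skin and triangles for wounds, coloured by site (abdomen green, back orange, cheek blue). Unwounded cheek mouse 4 lies above all others in every class, unwounded back mouse 2 is next, and only the sheath keratins and type II keratins of unwounded cheek mouse 3 and the sheath keratins of the wound of back mouse 2 stand clear of the remaining libraries.

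Unwounded back of mouse 2 showed the same set at a far lower level. Its members summed to 354.05 FPKM, and 61 of them were at 0.5 FPKM or more. In 34 members, against 50 of all 18368 genes, the level was at least 1 FPKM and at least 10-fold above all 3 other unwounded back libraries. Leaving out Krtap20-2 and the 5 members present in at least 18 of the 24 libraries (Krtap3-2, Krtap3-3, Krt28, Krt32 and Krt75), the keratin-associated proteins were at 1.35% of their sum in cheek mouse 4, the sheath keratins at 1.61%, and the type I and type II shaft keratins at 0.813% and 0.747%. Krtap8-1 was at 19.75 FPKM and Krtap7-1 at 17.58 FPKM, against at most 0.72 and 0.35 FPKM in the other 3 back libraries. Krt31 was at 2.95 FPKM against at most 0.20 FPKM.

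The wound of back mouse 2 held more of the sheath keratins than of the shaft genes. Its levels came to 0.452% of the sheath keratin sum of unwounded cheek mouse 4 and 0.0889% of the keratin-associated protein sum. Krt71 was at 6.83 FPKM, Krt25 at 6.54 FPKM and Krt27 at 3.94 FPKM in this wound, whereas in the other 11 wounds Krt71 was at most 0.34 FPKM. Krtap8-1 was at 1.37 FPKM there and between 0 and 4.03 FPKM in the other wounds, so that it did not stand out. This comparison of classes rests on 1 wound and was not tested.

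In unwounded cheek of mouse 3 a part of the set was raised. There, 5 members were at 1 FPKM or more and at least 10-fold above both cheek mice 1 and 2, out of 9 such genes in the whole table. Among these 5, Krt28, a type I sheath keratin, was at 10.04 FPKM (0.38 and 0.50 FPKM in mice 1 and 2), and Krt73, its type II counterpart of the sheath cuticle, at 6.43 FPKM (0.03 and 0.03 FPKM). Krt25 was at 5.74 FPKM against 0.04 and 0.19 FPKM. Krt35, a shaft keratin that appears early in matrix cells, was at 4.74 FPKM against 0.04 and 0.14 FPKM. Relative to cheek mouse 4 these were 3.85% for Krt28, 2.29% for Krt73, 2.10% for Krt35 and 0.507% for Krt25. Shaft genes of later stages were not raised with them, as Krt31 was at 0.23 FPKM (0.34 and 0.12 in mice 1 and 2) and the keratin-associated proteins together at 0.133% of their cheek mouse 4 sum.

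Cheek mice 1 and 2 showed low levels of keratin-associated proteins with sheath keratins near 0. The keratin-associated proteins were at 0.221% and 0.268% of their cheek mouse 4 sum in unwounded skin and at 0.213% and 0.270% in the wounds. In unwounded skin sheath keratins were at 0.0126% and 0.0159%, type I shaft keratins at 0.0647% and 0.0654%, and type II at 0.0400% and 0.0414%. A like pattern was seen at a lower level in unwounded abdomen mouse 1 and back mouse 3. Apart from the 5 members present in at least 18 libraries, members summed to 15.27 and 14.11 FPKM there, with Krt71 at 0.03 and 0.11 FPKM. This sum was 26.33 and 31.36 FPKM in unwounded cheek of mice 1 and 2. By family, glycine- and tyrosine-rich genes were at 0.286% and 0.329% of their cheek mouse 4 sum in unwounded skin of mice 1 and 2, ultra-high-sulphur genes at 0.304% and 0.391%, and high-sulphur genes other than Krtap3-2 and Krtap3-3 at 0.0983% and 0.153%. Krtap7-1 was at 2.01 and 3.09 FPKM in unwounded cheek of mice 1 and 2 and at 1.86 and 3.24 FPKM in their wounds. In unwounded abdomen Krtap7-1 was at 0.43, 0.43, 0.68 and 0.43 FPKM, below every unwounded cheek library, of which mouse 3 had 1.51 FPKM. These groups were formed from the values of single mice and carry no test.

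**Figure D3:**
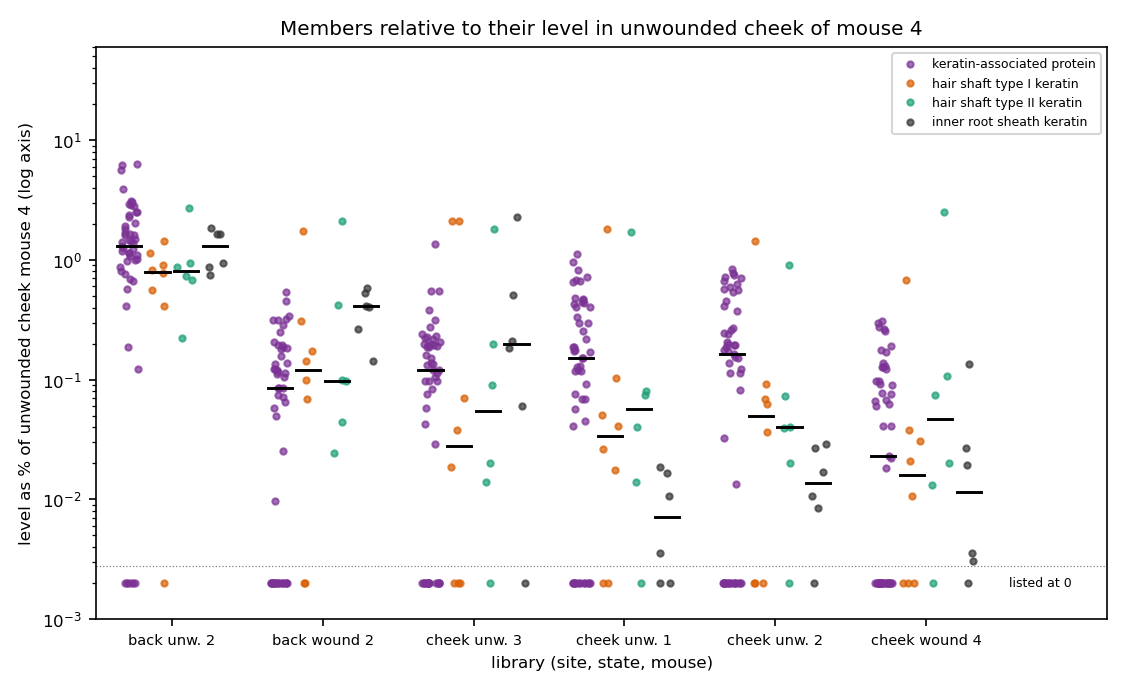
Level of each member in 6 libraries as a percentage of its level in unwounded cheek mouse 4 (log axis), coloured by class, with 1 point per gene, black bars at the medians, and points at the bottom for genes listed at 0. Krtap3-2, Krtap3-3, Krt28, Krt32, Krt75, Krtap20-2 and 1 type II keratin are not drawn. The 4 classes lie near 1% in unwounded back mouse 2, sheath keratins lie highest in its wound, a few members reach 2% in unwounded cheek mouse 3, and sheath keratins lie below the keratin-associated proteins in unwounded cheek mice 1 and 2.

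Some regulators of the matrix were also raised in both of these cheek libraries, mouse 4 and mouse 3. Set against the range of the 9 unwounded libraries without these mice and back mouse 2, 10 of 12 listed regulators lay above it in cheek mouse 4, 6 in cheek mouse 3 (Cux1, Dlx3, Hoxc13, Lef1, Msx2 and Shh) and 0 in back mouse 2. In cheek mouse 3 the other 6, Foxn1, Foxq1, Gata3, Ovol1, Wnt10b and Bmp4, lay within it. In back mouse 2, Wnt10b lay below it, at 1.05 FPKM. Of 10 other proteins of growing hair, 10 lay above that range in cheek mouse 4, 4 in cheek mouse 3 and 7 in back mouse 2. Crym lay below it in cheek mouse 3, at 0.25 FPKM. The share of all genes outside that range in these libraries was not counted, so these counts have no reference. S100a3, a calcium-binding protein of the hair cuticle, was at 846.5 FPKM against at most 9.07 FPKM elsewhere, and Tchh (trichohyalin, a protein of the sheath and medulla) at 562.3 against at most 8.36 FPKM. Hoxc13, a homeodomain factor known to drive hair keratin genes, was at 40.69 FPKM in cheek mouse 4, 8.27 FPKM in cheek mouse 3 and 2.63 to 5.12 FPKM in those 9 libraries. Msx2, a further matrix factor, was at 34.2, 5.11 and 1.46 to 3.00 FPKM in the same order. Shh, a signal made by matrix cells, was at 6.95 FPKM in cheek mouse 4 and 3.98 FPKM in cheek mouse 3, and at most 1.10 FPKM in those 9 libraries. In back mouse 2 neither Hoxc13 (3.41 FPKM) nor Shh (0.14 FPKM) was outside the range of those 9 libraries.

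Other cell type markers were read in the same way. All 6 cycling-cell genes lay above the range of the 9 libraries in both cheek mouse 4 and cheek mouse 3, with Cdk1 at 12.27 FPKM in mouse 4 and 8.64 in mouse 3 against 2.31 to 5.43 FPKM. In cheek mouse 4, 5 of 7 dermal papilla genes lay above it, 4 of 9 stem cell genes of the resting follicle above and 4 below, 3 of 4 adipocyte genes below and 4 of 4 fibroblast genes below. Cd34, a surface marker of resting bulge cells, was among the lower ones, at 165 FPKM against 236 to 301.2 FPKM. The 4 stem cell genes above the range were Foxc1, Lhx2, Sox9 and Tbx1, with Lhx2 at 44.42 FPKM against 11.28 to 25.32 FPKM. Of 8 sebaceous gland genes, 3 lay below it and 1 above in this library. In back mouse 2, 0 genes of the cycling, dermal papilla and resting follicle lists lay above the range. Of other lists there, 4 of 8 sebaceous gland genes and 2 of 4 fibroblast genes lay below it. Above it lay 2 of 4 adipocyte genes and 1 of 5 skeletal muscle genes. The share of all genes outside the range was not counted, so these counts also have no reference. Whether these cell types contribute to the members' levels was not tested.

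**Figure D4:**
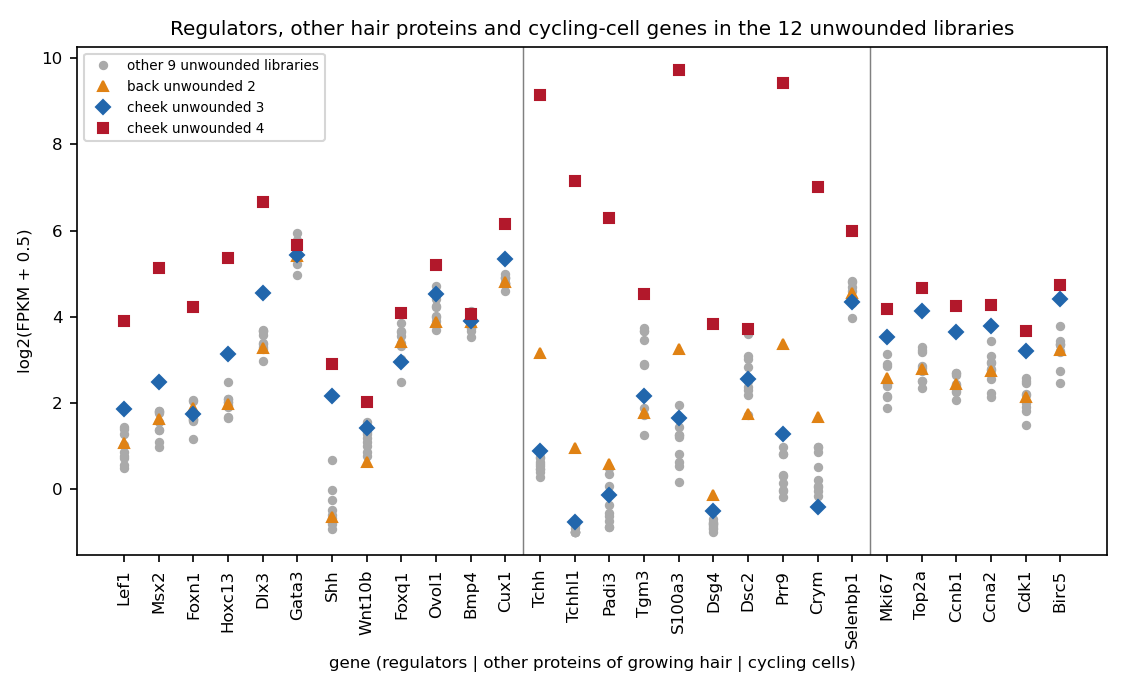
Level, as log2(FPKM + 0.5), of 12 matrix and shaft regulators, 10 other proteins of growing hair and 6 cycling-cell genes in the 12 unwounded libraries, with cheek mouse 4 as red squares, cheek mouse 3 as blue diamonds, back mouse 2 as orange triangles and the other 9 libraries in grey. Cheek mouse 4 is highest for most genes, cheek mouse 3 is next for Shh, Msx2, Hoxc13 and the cycling-cell genes, and back mouse 2 is next for Tchh, S100a3 and Prr9.

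Between sites, no member was called different in unwounded skin. Only 24 of the 78 members passed the filter of 0.5 FPKM in at least 4 of the 12 libraries. By limma (adjusted p under 0.05), 0 of these 24 were called in back against abdomen, where 2.67% of all tested genes were called, 0 in cheek against abdomen (2.57%) and 0 in cheek against back (1.05%). At an unadjusted p under 0.05 there were 1, 0 and 1 members. The median log2 difference of cheek from abdomen was 2.37 over these members and 0.03 over all tested genes, with cheek mouse 4 in the fit. Without that mouse, the median was 0.66 and 0 of 19 members were called (1.49% of all genes). Some members, such as Krtap15 and Krtap19-4, passed the filter of the first fit only through unwounded cheek and back mouse 2. The filter thus favours members that are high in cheek, and these medians do not measure a difference of the whole set.

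Apart from cheek mouse 4 and back mouse 2, some keratin-associated proteins were at higher values in unwounded cheek, a pattern seen after these mice had been set aside and given here with no test. Krtap8-1 was at 1.90, 2.63 and 1.34 FPKM in unwounded cheek of mice 1, 2 and 3, at 0.61, 0.48, 0.64 and 0.49 FPKM in unwounded abdomen and at 0.12, 0.72 and 0.53 FPKM in unwounded back of mice 1, 3 and 4. Krtap19-5 was at 1.45, 1.74 and 1.24 FPKM in the same cheek libraries, at 0.30, 0.30, 0.65 and 0.15 FPKM in abdomen and at 0.46, 0 and 0 FPKM in back. Both genes were picked with their values in view, and the share of all genes with such a difference was not counted. Krtap3-3 did not show the pattern, at 3.54, 3.38 and 2.72 FPKM in these cheek libraries and 10.05, 7.08, 5.81 and 1.86 FPKM in unwounded abdomen. Krtap3-2 also overlapped between these sites.

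Among wounds, 11 members passed the filter. Of these, limma called 0 in back against abdomen (1.27% of all genes), 0 in cheek against abdomen (10.8%) and 0 in cheek against back (2.50%), and 2, 4 and 2 had an unadjusted p under 0.05. Leaving out each mouse in turn, limma called 3 of 10 members higher in cheek than in abdomen wounds without cheek mouse 3 (3.13% of all genes called higher), namely Krtap7-1, Krtap8-1 and Krtap19-9b. That mouse gave the lowest of the 4 cheek wound values of all 3 genes, so this fit left out the library that went against the difference. Krtap8-1 was at 2.70, 4.03, 0 and 1.08 FPKM in cheek wounds of mice 1 to 4 and at 0, 0.23, 0 and 0.12 FPKM in abdomen wounds.

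The 5 members present in the most libraries were these. Krtap3-2 and Krt75 were at 0.5 FPKM or more in all 24, Krt32 in 22, Krtap3-3 in 20 and Krt28 in 18, with Krtap22-2 (15) and Krtap8-1 (14) next. The limit of 18 libraries was set after the values were seen. Krtap3-2, a high-sulphur keratin-associated protein, was at 82.2, 90.7, 80.95 and 36.4 FPKM in unwounded abdomen of mice 1 to 4, at 59.1, 65.1, 43.2 and 49.2 FPKM in unwounded back and at 62.7, 39.5, 70.7 and 331.4 FPKM in unwounded cheek. Thus its level in cheek mouse 4 was 3.65-fold the highest other library. Its neighbour Krtap3-1 was between 0 and 1.31 FPKM in all unwounded libraries but back mouse 2 (7.77 FPKM) and cheek mouse 4. Krtap3-2 and Krtap3-3 may share reads, since 25.1% and 36.7% of their 100-base windows occur in another gene, mostly in each other, whereas Krtap3-1 has no window in common with another gene.

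Each member called in wounds in the fit with all mice was lower. Of the 78 members 30 passed the filter in at least 4 of all 24 libraries. Limma with a term for each mouse called 1 lower in abdomen wounds, where 16.0% of all genes were lower (32.9% called in either direction), 3 lower in back wounds (17.9%, 45.9% in either direction) and 7 lower in cheek wounds (16.9%, 36.6% in either direction). The share of the 30 members called lower was thus below that of all genes in abdomen (3.33%) and in back, and above it in cheek (23.3%). Without cheek mouse 4 it was 12.5%, 33.3% and 20.8%, against 16.7%, 18.3% and 14.3% of all genes, so that in back the order turned. The median log2 change was -0.32, -0.60 and -2.43 over the members in abdomen, back and cheek, and -0.01, 0.07 and 0.01 over all genes. Without cheek mouse 4 the median in cheek was -0.52. Krt25, Krt27, Krt71 and Krt73 reached 0.5 FPKM only in unwounded cheek mice 3 and 4 and in both libraries of back mouse 2. In abdomen they were at most 0.25 FPKM. They passed the filter through libraries where they were high, so the share and median of cheek wounds are partly set by the filter.

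Krt75, the companion layer keratin, was the member called at all 3 sites. In unwounded abdomen it was at 36.4, 22.1, 36.0 and 30.5 FPKM in mice 1 to 4, and in their wounds at 8.20, 16.8, 23.6 and 19.4 FPKM. In unwounded back it was at 20.7, 35.3, 18.5 and 27.2 FPKM, and in the wounds at 14.4, 11.3, 11.4 and 14.3 FPKM. In unwounded cheek it was at 37.1, 36.5, 51.7 and 155.5 FPKM, and in the wounds at 17.8, 11.8, 15.3 and 20.6 FPKM. Back and cheek wounds lay below all unwounded libraries of their site, abdomen overlapped in 1 pair of values, and Krt75 was lower in the wound in 4 of 4 mice at each site. The limma log2 change was -0.93 (SE 0.32, adjusted p = 0.044) in abdomen, -0.92 (SE 0.32, adjusted p = 0.034) in back and -1.81 (SE 0.32, adjusted p = 0.0014) in cheek. Without cheek mouse 4 the cheek change was -1.45 (SE 0.31, adjusted p = 0.0052). The abdomen call was lost in 8 of 12 limma fits that left out 1 mouse (without abdomen mouse 1, the change was -0.54 with adjusted p = 0.19), and the back call in 3 of 12 (without back mouse 2, -0.69 with adjusted p = 0.15). The cheek call held in all 12.

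Krtap3-2 fell in back and cheek wounds. It was at 14.5, 31.5, 17.96 and 27.1 FPKM in back wounds of mice 1 to 4 and at 40.9, 22.5, 15.8 and 28.6 FPKM in cheek wounds, and in abdomen wounds at 34.2, 51.4, 65.4 and 38.8 FPKM. Every back wound lay below every unwounded back library. By limma the log2 change was -1.28 in back (SE 0.42, adjusted p = 0.028) and -1.76 in cheek (SE 0.42, adjusted p = 0.0080), with 4 of 4 mice lower at both sites. The back call was lost without back mouse 1 (adjusted p = 0.11), mouse 2 (adjusted p = 0.061) or mouse 3 (adjusted p = 0.073) in limma fits. In abdomen the change was -0.57 (SE 0.42, adjusted p = 0.32), with 3 of 4 mice lower. Without cheek mouse 4 the cheek change was -1.18 (SE 0.33, adjusted p = 0.019).

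Krt32, a type I keratin of the hair cuticle, fell in cheek wounds. It was at 7.34, 2.77, 3.68 and 66.65 FPKM in unwounded cheek and at 2.46, 1.48, 0.39 and 1.24 FPKM in the wounds, by limma a log2 change of -2.41 (SE 0.59, adjusted p = 0.0097), with 4 of 4 mice lower. Unwounded back was at 3.43, 4.04, 2.41 and 3.82 FPKM and back wounds at 0.88, 0.92, 0.89 and 0.92 FPKM, so these groups did not overlap, although the change of -1.46 (SE 0.59, adjusted p = 0.065) missed the threshold in the limma fit with all mice. Unwounded abdomen was at 5.09, 5.81, 4.63 and 4.13 FPKM and its wounds at 0.49, 3.27, 1.90 and 2.78 FPKM, again without overlap (log2 change -1.21, SE 0.59, limma adjusted p = 0.14). When cheek mouse 4 was left out, which lowered the SE to 0.30 in abdomen and back and 0.35 in cheek, Krt32 was called lower at all 3 sites, with limma adjusted p = 0.010, 0.0023 and 0.0081 for abdomen, back and cheek.

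Krtap3-3, Krt28 and Krtap20-2 were also called in cheek wounds, where not every member called is described here. Krtap3-3 was at 3.54, 3.38, 2.72 and 333.33 FPKM in unwounded cheek and at 0.73, 1.29, 0 and 0.94 FPKM in the wounds (limma log2 change -3.34, SE 0.95, adjusted p = 0.020). Without cheek mouse 4 its change was -1.84 (SE 0.61, adjusted p = 0.040), and in back, where the unwounded libraries had 3.91, 9.37, 2.85 and 4.06 FPKM and the wounds 0.38, 0.47, 0.26 and 0.72 FPKM, it was then called as well (-2.43, SE 0.53, adjusted p = 0.0042). Krt28 was at 0.38, 0.50, 10.04 and 260.73 FPKM in unwounded cheek and at 0.43, 0.04, 0.20 and 0.08 FPKM in the wounds, a limma log2 change of -3.38 (SE 1.10, adjusted p = 0.034). This change was -1.57 when that mouse was left out (SE 0.61, adjusted p = 0.068 by limma). Krtap20-2 was at 0.80, 0.56, 0.66 and 0.15 FPKM in unwounded back and at 0, 0.14, 0.13 and 0.13 FPKM in the wounds (limma log2 change -0.76, SE 0.21, adjusted p = 0.011). In cheek it was at 0.70, 0.55, 0.27 and 0.27 FPKM in unwounded skin and at 0.13, 0, 0 and 0.27 FPKM in the wounds. Its limma log2 change there was -0.66 (SE 0.21, adjusted p = 0.029). Without cheek mouse 3, neither Krt28 (adjusted p = 0.11) nor Krtap20-2 (adjusted p = 0.074) was called in cheek by limma, and without back mouse 1 Krtap20-2 was not called in back (adjusted p = 0.070). At values under 1 FPKM the added 0.5 FPKM understates the change. Krtap20-2 did not exceed 0.80 FPKM in any library, so its calls rest on values near the floor.

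**Figure D5:**
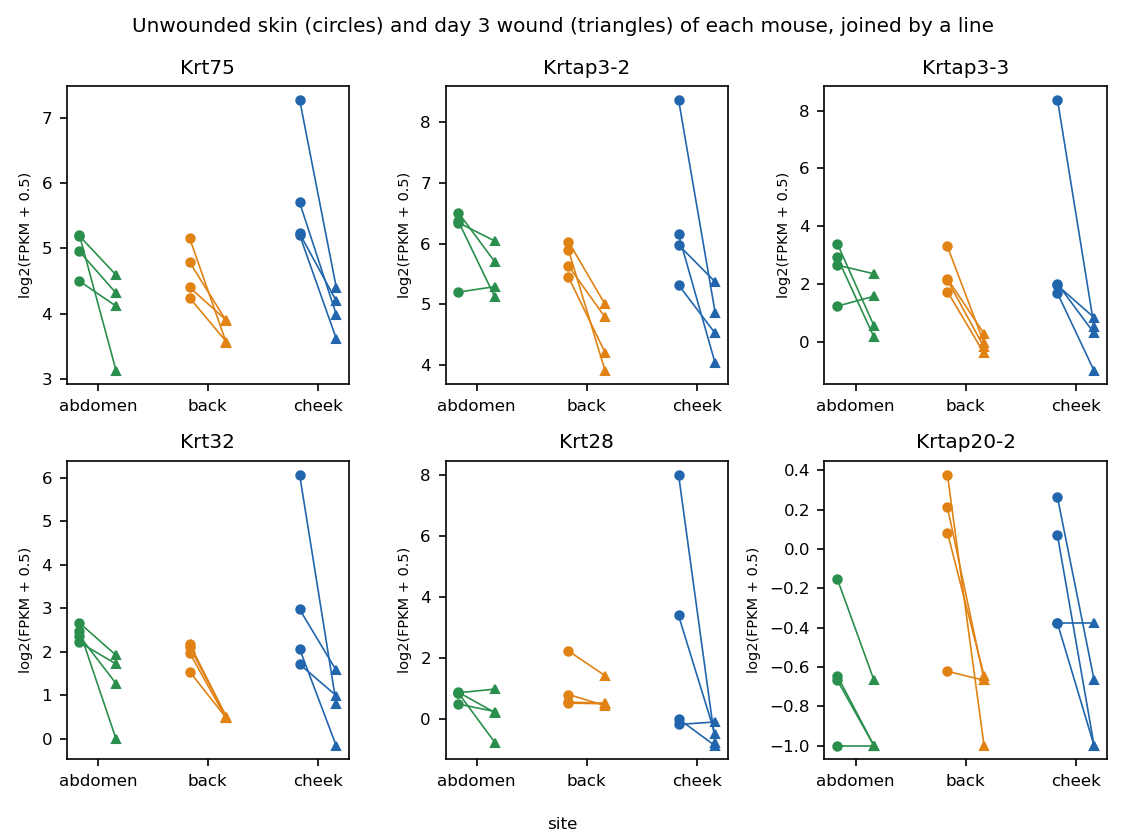
Level, as log2(FPKM + 0.5), of 6 members in unwounded skin (circles) and in the day 3 wound (triangles) of each mouse, joined by lines, for abdomen (green), back (orange) and cheek (blue); vertical axes differ between panels. Lines of Krt75 and Krt32 slope down in all 12 mice, and the steepest line of each panel but that of Krtap20-2 belongs to cheek mouse 4.

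Leaving out cheek mouse 4 changed these counts. Of the 24 members then tested, limma called 3 lower and 1 higher in abdomen wounds (34.6% of all genes called in either direction), 8 lower in back wounds (18.3% of all genes lower) and 5 lower in cheek wounds (14.3% lower). Krt32, Krt75 and Krtap6-5 were the 3 lower in abdomen, and Krt84, a type II keratin otherwise known from tongue, the 1 higher. Krt84 was at 0.42, 0.32, 0.22 and 0.05 FPKM in unwounded abdomen and at 1.02, 0.63, 0.76 and 0.11 FPKM in the wounds, with 4 of 4 mice higher (log2 change 0.54, SE 0.19, limma adjusted p = 0.042). In back the 8 were Krt32, Krt75, Krtap2-4, Krtap3-2, Krtap3-3, Krtap6-5, Krtap20-2 and Krtap22-2, and in cheek the 5 were Krt32, Krt75, Krtap3-2, Krtap3-3 and Krtap20-2. Without back mouse 2 as well, 4 lower and 1 higher of 20 members were called in abdomen (33.2% of all genes), 4 lower in back (13.9% of all genes lower) and 6 lower in cheek (13.5% lower).

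The wound effect on members was not shown to differ between sites. The limma F test of equal effects called 0 of 30 members and 3 of 14423 genes (0.0208%), and 0 members had an unadjusted p under 0.05. Among the 77 members with a RefSeq position, the smallest p values belonged to Krt75 (adjusted p = 0.47 by limma), Krt28 (adjusted p = 0.49) and Krt73 (adjusted p = 0.50). It also called 0 of 24 members without cheek mouse 4, with 0.0139% of all genes called.

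Other gene lists were read beside these members in wounds. Of 9 stem cell genes of the resting follicle, limma called 6 lower in abdomen, 4 in back and 7 in cheek wounds, where 16.0%, 17.9% and 16.9% of all genes were lower. Krt15, a keratin of bulge cells, had a log2 change of -1.03 (SE 0.16, limma adjusted p = 0.00049), -0.77 (SE 0.16, adjusted p = 0.0017) and -0.83 (SE 0.16, adjusted p = 0.0015). Of the 12 matrix regulators, 3, 3 and 9 were lower, near the share of all genes in abdomen and back, and 1 was higher in back wounds. The cheek count includes cheek mouse 4, and no count without that mouse is given. Dlx3 was at 9.25, 7.35, 22.95 and 100.72 FPKM in unwounded cheek and at 9.84, 9.19, 9.24 and 8.02 FPKM in the wounds. Hoxc13 was at 3.22, 2.63, 8.27 and 40.69 FPKM and at 2.15, 2.18, 2.33 and 1.92 FPKM. Of the other proteins of growing hair, 1, 2 and 2 of 8 tested were called higher and 0 lower. Those called were Dsc2, a desmosomal cadherin, at all 3 sites and Tgm3, an epidermal transglutaminase, in back and cheek. Of 6 cycling-cell genes 5, 6 and 5 were higher. No share of all genes called higher is given for these lists, and 32.9%, 45.9% and 36.6% were called in either direction. The neutrophil gene S100a9 was higher by 6.23 (SE 0.41), 6.45 (SE 0.41) and 7.54 (SE 0.41), and the 4 listed adipocyte genes were lower in abdomen and back and 3 of them in cheek. The basal keratin Krt14 was higher by 1.54 (SE 0.22), 1.99 (SE 0.22) and 1.94 (SE 0.22) at the 3 sites, so Krt75 and Krt14 moved in opposite directions at each site. The part of changed cell composition in the members' change was not tested.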

How the data were processed

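Total RNA of 24 mouse skin libraries (12 mice, unwounded and wounded skin of 1 site each) was read in pairs of 100 bases. The FPKM values deposited by the authors were made per library with RSEM (1.2.12) after mapping with HISAT2 and Bowtie2 (2.2.5) to mm10, and were rounded to 2 decimals; they hold no counts, so the depth is unknown and intervals for counting error are not given. A table of the authors' own comparisons (log2 fold changes and adjusted p-values) was not used. Of the per-sample columns 0 were left unused, and 0 pairs of libraries were identical.

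The scale for tests was log2(FPKM + 0.5). Fits used limma (3.58.1, statmod 1.5.0, R 4.3.3) with trend and robust moderation and took in genes that reached 0.5 FPKM in 4 or more of the libraries fitted, and p was adjusted by Benjamini-Hochberg over all tested genes (threshold 0.05). Sites were compared in the 12 unwounded and the 12 wound libraries, and wound effects over 24 libraries with mouse as a term. The wound and unwounded library of a mouse come from the same animal by the labels, and their deviations correlated with a mean r of 0.32, 0.35 and 0.28 in abdomen, back and cheek (lowest -0.03) against -0.11, -0.12 and -0.10 for different mice. The fits were tested on simulated data.

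Members and gene lists were chosen with earlier results of these data known. Named members, taken from the 77 with a RefSeq position, were the 3 with the highest mean in each class, the 3 most significant calls in each direction per comparison and the 3 smallest p of the F test, and up to 3 called genes per list; further members and list genes were picked with their values in view. All 78 members were counted, and 1 hair shaft type II keratin is not reported here by name. A split of keratin-associated proteins by protein composition was not used here. Promoters are from RefSeq (GRCm38.p6) for 66 members. Alternatives were pseudocounts, filters, scalings, moderation, model terms, a threshold of 0.001 and leaving out mice.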

Additional observations from a re-analysis of the deposited data

Results flagged for a closer look

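In each group of 4 libraries, the highest or lowest library was set against the rest: its gap to the nearest other value, divided by the range of the group, was called large above the critical value of Dixon's test. This was done for class sums and named members in 126 groups, of which 58 passed, where chance passes about 1 in 20 groups of independent values. That share is no reference here, since the members were named for high means, which unwounded cheek mouse 4 sets, members move together within a library, and a single value above 0 among 3 listed at 0 always passes. All values are FPKM.

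In unwounded cheek mouse 4, 20 values stood apart as the highest of their group. They were those of the sum of keratin-associated proteins (11349), the sum of hair shaft type I keratins (1505), the sum of hair shaft type II keratins (1449), the sum of inner root sheath keratins (4531), Krtap8-1 (1610), Krtap7-1 (1550), Krtap3-2 (331.4), Krt33a (375.7), Krt31 (328.2), Krt34 (291.7), Krt83 (347.7), Krt81 (285.9), Krt87 (227.5), Krt71 (1651), Krt25 (1133), Krt27 (972.6), Krt75 (155.5), Krt32 (66.65), Krt28 (260.7) and Krt73 (280.4).

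In unwounded back mouse 2, 17 values stood apart as the highest of their group. They were those of the sum of keratin-associated proteins (219.2), the sum of hair shaft type I keratins (15.73), the sum of hair shaft type II keratins (10.82), the sum of inner root sheath keratins (72.95), Krtap8-1 (19.75), Krtap7-1 (17.58), Krt33a (2.09), Krt31 (2.95), Krt34 (2.38), Krt83 (3.04), Krt81 (2.1), Krt87 (1.56), Krt71 (27.26), Krt25 (20.99), Krt27 (16.01), Krt28 (4.19) and Krt73 (2.45).

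In the wound of back mouse 2, 9 values stood apart as the highest of their group. They were those of the sum of hair shaft type I keratins (3.29), the sum of inner root sheath keratins (21.49), Krt33a (0.37), Krt34 (0.42), Krt71 (6.83), Krt25 (6.54), Krt27 (3.94), Krt28 (2.17) and Krt73 (1.49).

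The remaining 12 values were all under 1 FPKM. In unwounded abdomen of mouse 2, it was that of Krt28 (0.9). In unwounded abdomen of mouse 3, they were those of Krtap7-1 (0.68) and Krt73 (0.03). In unwounded abdomen of mouse 4, it was that of Krt25 (0.04). In the abdomen wound of mouse 1, they were those of Krt34 (0.04) and Krtap20-2 (0.13). In the abdomen wound of mouse 3, they were those of Krt81 (0.29) and Krt87 (0.13). In the abdomen wound of mouse 4, they were those of Krt33a (0.07) and Krt25 (0.11). In the back wound of mouse 1, it was that of Krtap20-2 (0). In the cheek wound of mouse 2, it was that of Krt83 (0.23). Krt28 in abdomen mouse 2 and Krtap20-2 in the wound of back mouse 1 were the lowest of their groups.

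No cause was tested for any of these values.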

How the results depend on the processing

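Counts of members called by limma kept their size within 1.5 times under most alternatives, and no direction reversed for the members named in the wound comparisons. Cheek mouse 4 and back mouse 2 were also left out together, a choice made after seeing the data. Then 2 members were called in unwounded cheek against abdomen and 2 in unwounded cheek against back. The share of all genes called in these site comparisons is not given, so these counts have no reference. In abdomen wounds 5 members were then called (33.2% of all genes). Without a filter on low values, 1 was called in cheek against back wounds. In abdomen wounds 0 were called without the replicate block (the term for each mouse), 0 in a fit of only the 8 abdomen libraries and 0 at a threshold of 0.001. In back wounds 5 were called with a pseudocount of 0.1, 5 with median-ratio scaling, 5 with quantile normalization and 5 with moderation without trend or robustness, and 0 at 0.001. In cheek wounds 0 were called at 0.001 and 2 in a fit of only the 8 cheek libraries. Without the replicate block no other wound count moved by over 1.5 times. The causes were not tested.

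Leaving out 1 mouse at a time gave 0 to 4 members in abdomen wounds, 1 to 8 in back wounds, 4 to 9 in cheek wounds, 0 to 3 in cheek against abdomen wounds and 0 to 1 in cheek against back wounds, and 0 in each of the other site comparisons and in the F test. In abdomen wounds the count was 0 without abdomen mouse 1, 3 or 4, back mouse 1, 3 or 4, or cheek mouse 2 or 3, and 4 without cheek mouse 4. In back wounds it was 1 without back mouse 1, 2 or 3, and 8 without cheek mouse 4. In cheek wounds it was 4 without cheek mouse 3. In cheek against abdomen wounds it was 3 without cheek mouse 3 and 1 without abdomen mouse 1, and in cheek against back wounds 1 without abdomen mouse 1 or 3. Krt75 in abdomen wounds ranged from adjusted p = 0.022 to 0.19 over these limma fits, and in cheek wounds it, Krtap3-2 and Krt32 stayed called in all 12.

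Mouse numbers are shared between sites without being the same animals. Same-numbered libraries of different sites deviated together with mean r between -0.17 and 0.02, and a replicate block on the number called 0 members in each of the 6 site comparisons. FPKM values without counts limit what can be said of members under about 0.5 FPKM, which is most members in most libraries.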
